A study of Rattus norvegicus with 12 samples.

Results

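Gpihbp1 encodes the protein that anchors lipoprotein lipase on the capillary wall, and it was examined here beside Lpl and 8 general endothelial genes in the pituitary of fetal rats exposed to TCDD. The 10 genes (Gpihbp1, Lpl, Pecam1, Cdh5, Kdr, Flt1, Tek, Tie1, Plvap and Emcn) were taken by name from the array probes and are 10 of the 19382 genes measured. The set was chosen by the male contrast: Gpihbp1 was picked because its difference in the male pituitaries had the 9th smallest p-value of all genes, so the male values are given as a description without a test. The female difference was not part of that ranking, but the spread between the female arrays was. The fit that gave the p-values estimated each gene's spread from the arrays of both sexes together. In that fit the female p-value of Gpihbp1 rests on the same spread, so it is not independent of the choice.

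The series holds 12 one-colour arrays, 3 in each of 4 groups: male TCDD, male control, female TCDD and female control. All fetuses were Wistar rats at gestational day 18, the exposure was through the mother, and TCDD is a chlorinated dioxin that activates the aryl hydrocarbon receptor. The labels give no dose, no day of dosing, no vehicle, and no word on whether an array held 1 pituitary or a pool or on which fetuses were litter mates, so p-values measure only the spread between these samples. The question put to the data was whether Gpihbp1 differed between exposed and control pituitaries beyond the general endothelial genes.

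Capillary endothelium carries triglyceride-rich lipoproteins past tissues that take up fatty acids. Lipoprotein lipase is made by other cells, and GPIHBP1, a small membrane-anchored protein of the Ly6 family, carries it across the endothelial cell to the vessel lumen, where it splits triglyceride. The pituitary has a dense bed of fenestrated capillaries through which hypothalamic hormones arrive and pituitary hormones leave. General endothelial genes encode the junctions and receptors that most blood vessels share, so their summed signal follows how much vessel RNA a sample holds. In whole-tissue RNA, fewer cells of a type and less RNA per cell cannot be told apart.

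Each of the 10 genes had 1 probe on the array, and each probe stood well above background on all 12 arrays. The sequences of 6 of these 60-base probes are shown because each gene's values rest on that single sequence; the capitals mark the longest run of letters shared with any of the 30366 other probes, on either strand. Positions are on the rn4 build as the scanner files give them.

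Gpihbp1, chr7:113539631-113539803, plus strand: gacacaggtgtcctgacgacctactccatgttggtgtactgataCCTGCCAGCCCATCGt
Cdh5, chr19:779665-779724, minus strand: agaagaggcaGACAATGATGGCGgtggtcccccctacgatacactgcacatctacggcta
Flt1, chr12:7957094-7957153, plus strand: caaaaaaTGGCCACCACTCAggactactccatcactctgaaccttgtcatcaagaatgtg
Tek, chr5:115178576-115178635, plus strand: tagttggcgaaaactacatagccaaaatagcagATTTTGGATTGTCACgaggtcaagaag
Tie1, chr5:138950263-138950322, minus strand: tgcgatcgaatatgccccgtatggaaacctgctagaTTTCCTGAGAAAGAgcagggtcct
Emcn, chr2:234958254-234958549, plus strand: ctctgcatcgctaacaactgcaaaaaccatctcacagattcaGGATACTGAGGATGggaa

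The Gpihbp1 probe covers a genomic interval of 173 bases, more than its own 60 bases, and 55% of its bases are G or C. Its longest run shared with another probe is 15 bases, as it is for Tek. For the other 4 sequences shown the longest shared run is 13 or 14 bases. The exon or untranslated region under each probe is not given, because no annotation of rn4 was used here.

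The arrays were even in depth: 75.1% to 78.4% of the 42877 non-control spots of an array stood well above background and none was saturated. Levels below are log2 processed signals relative to the array's 75th percentile, so that 0 is the level of that percentile. Ahrr, the repressor of the aryl hydrocarbon receptor and a standard exposure marker, was higher in exposed pituitaries by 5.86 on the log2 scale in females (adjusted p = 0.000185 by limma with Benjamini-Hochberg adjustment, over all genes), with no overlap between groups in either sex. The X-linked gene Eif2s3, chosen after its values were seen, separated all arrays labelled female from all labelled male. The arrays differed strongly in markers of sensory ganglion neurons: the mean level of 25 such genes lay between -3.35 and 1.60 in male TCDD arrays and between -3.62 and 0.21 in male controls, and between -3.57 and 0.59 in female TCDD arrays and between -3.74 and 0.75 in female controls. It was above -2 on 6 arrays, male TCDD 1 and 2, male control 2, female TCDD 1 and 3 and female control 2, and results are given below without them too.

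Gpihbp1 had lower values in the exposed than in the control pituitaries of each sex, and the difference was larger in males. In males its processed signal was 21.2, 19.3 and 20.3 intensity units in TCDD pituitaries, against 45.7, 38.1 and 82.3 units in control pituitaries. In females it was 30.5, 28.5 and 26.8 units in TCDD pituitaries, against 37.9, 38.6 and 44.3 units in control pituitaries. Every exposed array was therefore below every control array of its own sex, and the 3 male TCDD arrays lay close together while male control 3 stood high. These are dim signals: the median of the negative control spots was 2.10 to 3.01 units, and the scanner program's own error estimate for the Gpihbp1 spot was 10.5% to 16.3% of the signal.

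On the log2 level scale Gpihbp1 averaged -5.71 ± 0.06 in male TCDD pituitaries and -4.27 ± 0.40 in male control pituitaries (SD, n = 3 each), a difference of -1.45 (SE 0.23), or a level 2.72-fold lower in the exposed males. The gap between the highest exposed and the lowest control male array was 1.03. In females Gpihbp1 averaged -5.26 ± 0.26 in TCDD pituitaries and -4.65 ± 0.25 in control pituitaries (SD, n = 3 each), a difference of -0.61 (SE 0.23), or a level 1.52-fold lower in the exposed females. The gap in females was 0.17, smaller than the SD within either group.

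The female difference did not pass the test: limma gave an adjusted p of 1.0 over all genes, and an unadjusted p of 0.0249. The exact two-sided permutation test over the 6 female arrays gave p = 0.1, the smallest that its 20 arrangements allow. As background, 5.51% of all genes had every female TCDD array below every female control array, and 6.02% had every male TCDD array below every male control array, the contrast that chose Gpihbp1. The number of genes lower without overlap in both sexes was 73, which is 0.377% of all genes, 6.84% of the female list and 6.26% of the male list. The difference between the sexes in Gpihbp1 was not tested, since the male contrast chose the gene.

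By group mean the order of Gpihbp1 levels, low to high, was male TCDD, female TCDD, female control, male control. Male TCDD arrays (highest -5.65) did not overlap female TCDD arrays (lowest -5.54). The share of all genes with such a separation was not computed, and the male values are those that chose Gpihbp1. The male and female TCDD arrays were also on different slides, so sex and slide cannot be told apart there. Female control arrays (-4.88 to -4.39) and male control arrays (-4.62 to -3.83) overlapped. Ranked by its female difference, Gpihbp1 was 838th lowest, with 4.32% of genes lower. Ranked by its male difference it was 73rd lowest, with 0.371% of genes lower.

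**Figure D1:**
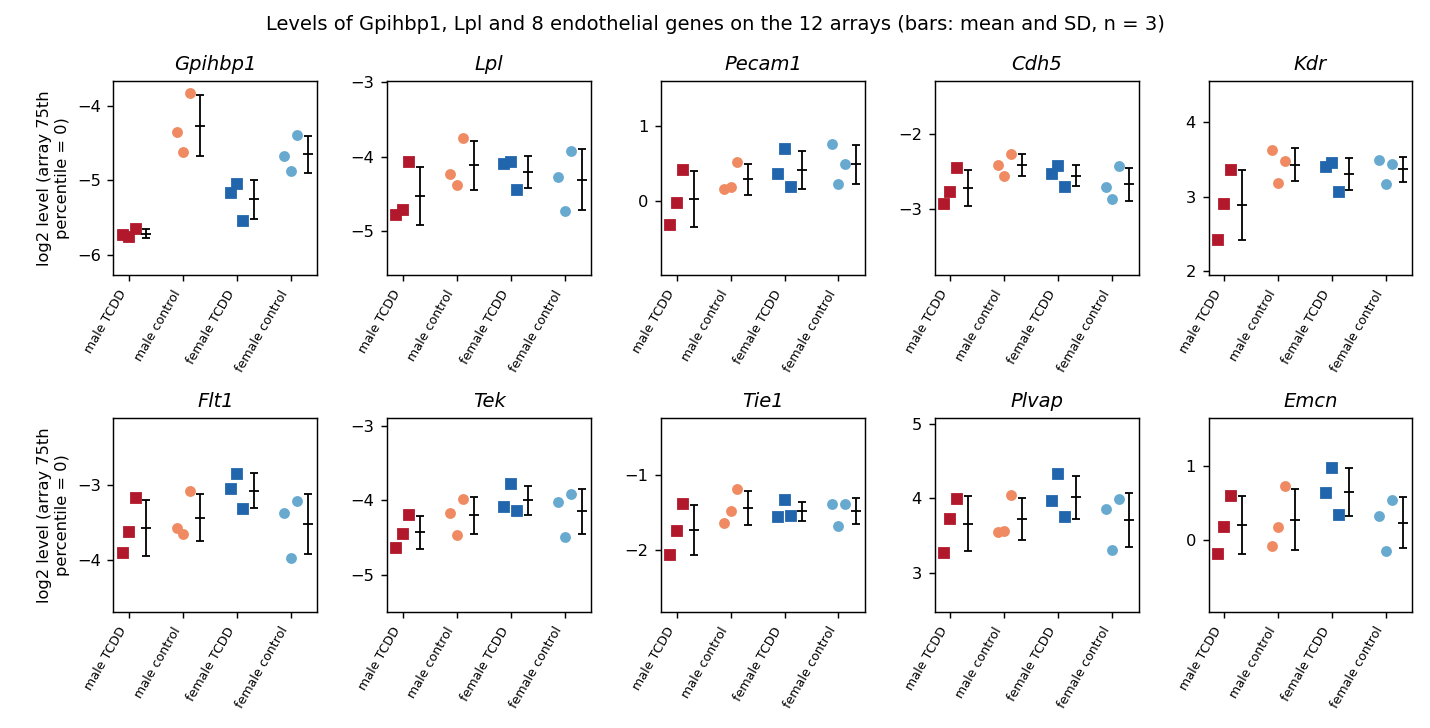
Log2 levels of the 10 genes (vertical axes, array 75th percentile = 0, each panel spanning the same range) on the 12 arrays in the 4 groups; squares are TCDD arrays, circles are control arrays, and the black bars are the mean and SD of 3 arrays. Gpihbp1 is the one panel in which the TCDD arrays lie below the control arrays of the same sex without overlap, by 1.03 in males and 0.17 in females.

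Lipoprotein lipase itself, the enzyme that GPIHBP1 carries, overlapped between groups in both sexes. The Lpl level was -4.78, -4.71 and -4.07 in male TCDD pituitaries, against -4.23, -4.38 and -3.75 in male control pituitaries. It was -4.10, -4.07 and -4.45 in female TCDD pituitaries, against -4.27, -4.73 and -3.92 in female control pituitaries. The difference was -0.40 in males and 0.10 in females (SE 0.27, adjusted p by limma 1.0 in females), so the female groups did not differ beyond their spread.

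Among the junction genes, Pecam1 encodes an adhesion molecule of endothelial cell contacts. Its level was -0.32, -0.02 and 0.42 in male TCDD pituitaries, against 0.15, 0.19 and 0.52 in male controls, and 0.35, 0.69 and 0.19 in female TCDD pituitaries, against 0.76, 0.23 and 0.49 in female controls. The Pecam1 differences were -0.27 in males and -0.08 in females, with overlapping groups. Cdh5 encodes VE-cadherin, the cadherin of endothelial adherens junctions. Its level was -2.93, -2.78 and -2.46 in male TCDD pituitaries, against -2.41, -2.55 and -2.26 in male controls, and -2.53, -2.42 and -2.71 in female TCDD pituitaries, against -2.71, -2.86 and -2.43 in female controls. The Cdh5 differences were -0.31 in males and 0.11 in females, again with overlap.

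Of the receptors, Kdr encodes the main signalling receptor for Vegfa. Its level was 2.42, 2.90 and 3.36 in male TCDD pituitaries, against 3.63, 3.19 and 3.48 in male controls, and 3.06 to 3.45 in female TCDD pituitaries, against 3.17 to 3.49 in female controls. The Kdr difference was -0.54 in males, the lowest of the 8 general endothelial genes, with male TCDD 3 inside the control range, and -0.06 in females. Flt1, the Vegf receptor that also acts as a decoy, had differences of -0.14 in males and 0.44 in females. Its level was -3.06, -2.85 and -3.32 in female TCDD pituitaries, against -3.37, -3.97 and -3.21 in female controls, so that female control 3 lay inside the exposed range. Tek, the angiopoietin receptor, had differences of -0.23 in males and 0.14 in females. Tie1, its co-receptor, had differences of -0.30 in males and -0.0032 in females. None of these 4 receptors had groups apart in either sex.

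The last pair mark the vessel surface. Plvap forms the diaphragms of fenestrae and caveolae, and its level was 3.27, 3.73 and 3.99 in male TCDD pituitaries, against 3.56, 3.57 and 4.04 in male controls, and 3.97, 4.33 and 3.75 in female TCDD pituitaries, against 3.85, 3.31 and 3.99 in female controls. The Plvap differences were -0.06 in males and 0.30 in females. Emcn, a sialomucin of capillaries and veins, differed by -0.08 in males and 0.41 in females. Its level was 0.63, 0.97 and 0.34 in female TCDD pituitaries, against 0.32, -0.14 and 0.53 in female controls. Both genes overlapped between groups in each sex, and male control 3 was the highest male array for each.

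Taken as a list, the 8 general endothelial genes had a median difference of -0.25 in males, where 8 of 8 were below 0 and ranged between -0.54 and -0.06. This direction rested on some arrays: without the 6 arrays high in ganglion markers 5 of the 8 (Pecam1, Flt1, Tie1, Plvap and Emcn) were above 0 in males, between 0.022 and 0.27, and their mean differed by 0.03. Without male TCDD 1 alone, or male control 3 alone, Flt1, Plvap and Emcn were above 0. In females their median difference was 0.13, with 3 below 0 and 5 above and a range between -0.08 and 0.44. The median over all genes was -0.01 in males and -0.04 in females. No member of the 8 had exposed arrays all below or all above the controls in either sex, and none was called in females, where 0.0103% of all genes were called. Across the 10 genes, 1 had an unadjusted limma p under 0.05 in females, Gpihbp1, against 2.68% of all genes. The like share of all genes in males was 9.34%, in the contrast that chose Gpihbp1.

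**Figure D2:**
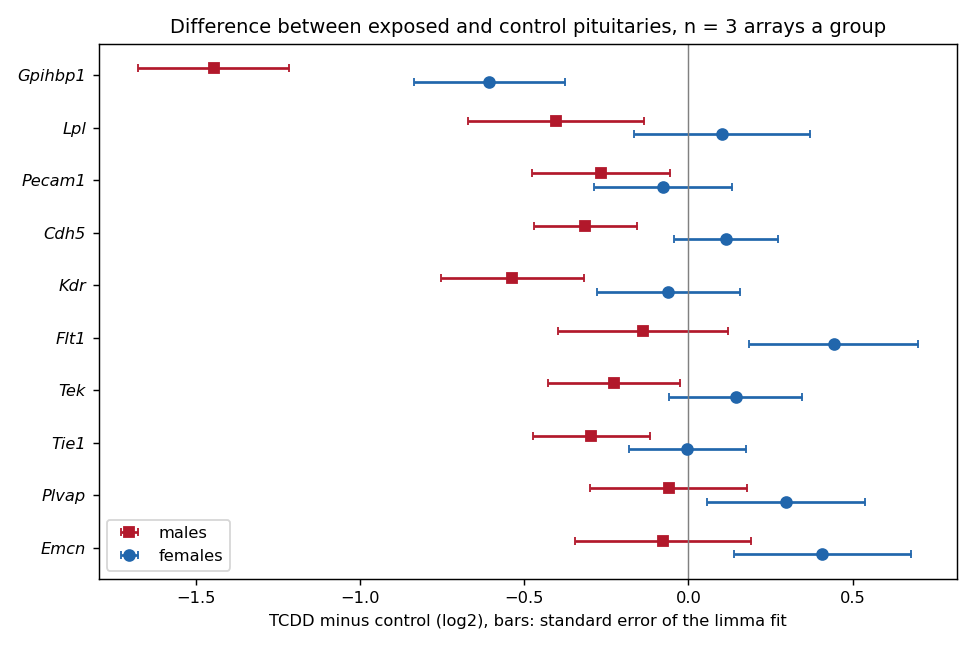
Difference in log2 level between TCDD and control pituitaries (horizontal axis) for each of the 10 genes, with males as squares and females as circles and the standard error of the limma fit as bars (n = 3 arrays a group). Gpihbp1 has the lowest point in each sex, -1.45 in males and -0.61 in females, while the 8 general endothelial genes lie between -0.54 and -0.06 in males and between -0.08 and 0.44 in females.

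Set against the endothelial genes on the same array, Gpihbp1 was lower in exposed pituitaries of each sex. Each gene was centred on its own mean over the 12 arrays, and the mean of the 8 general endothelial genes was subtracted from Gpihbp1. This difference was -0.22, -0.57 and -0.83 in male TCDD pituitaries, against 0.67, 0.48 and 0.86 in male controls. It was -0.34, -0.47 and -0.53 in female TCDD pituitaries, against 0.17, 0.39 and 0.39 in female controls. All 6 exposed arrays were thus below 0 and all 6 control arrays above 0.

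The exposed minus control value of this within-array difference was -1.21 in males and -0.76 in females, with gaps between the groups of 0.70 in males and 0.51 in females. In females that gap is wider than the 0.17 of Gpihbp1 alone, and the endothelial mean itself was 0.16 higher in exposed than in control females, with overlap. In males the endothelial mean was 0.24 lower in the exposed, also with overlap. The background for females is wide: after the same subtraction 10.0% of all genes had every female TCDD array below every female control array. In males the share was 2.24%, and in both sexes together it was 0.475%. The 4.32% of genes with a lower female difference than Gpihbp1 stays as before, because the subtraction moves the difference of every gene by the same amount.

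The same held gene by gene: Gpihbp1 minus each of the 8 endothelial genes gave exposed arrays all below the controls for 8 of 8 in both sexes. The share of all genes was not computed for each of these subtractions. Against the mean of the 8 it was 10.0% in females and 2.24% in males, the contrast that chose Gpihbp1. The differences ranged between -1.39 for Plvap and -0.91 for Kdr in males, and between -1.05 for Flt1 and -0.53 for Pecam1 in females. Gpihbp1 minus Lpl differed by -1.04 in males and -0.71 in females, without overlap. These 9 comparisons share the Gpihbp1 values and are not independent of each other.

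With the endothelial mean as a covariate in the limma fit over all genes, the Gpihbp1 difference was -1.27 (SE 0.19) in males and -0.72 (SE 0.19) in females, and the female value did not pass the test (adjusted p = 0.324 by limma). With normexp background correction, which adds 50 units where Gpihbp1 had under 50 units on 11 of 12 arrays, the Gpihbp1 difference was -0.53 in males and -0.29 in females, the female groups overlapped, and the within-array difference was -0.31 in males and -0.38 in females, without overlap in either sex.

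**Figure D3:**
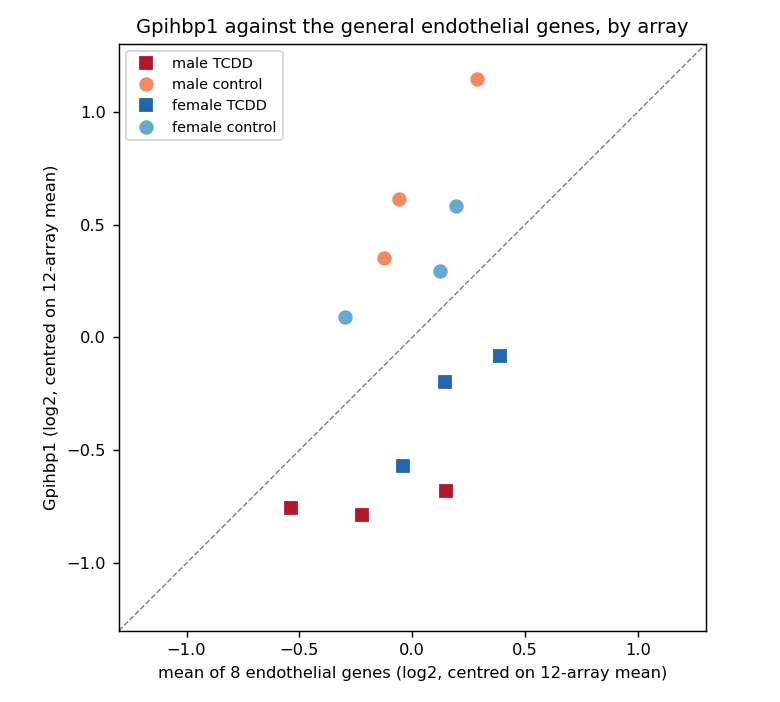
Gpihbp1 (vertical axis) against the mean of the 8 general endothelial genes (horizontal axis) on each of the 12 arrays, both as log2 levels centred on their 12-array means; the dashed line marks equal values. The 6 TCDD arrays (squares) lie below the line, between -0.83 and -0.22 from it, and the 6 control arrays (circles) lie above it, between 0.17 and 0.86.

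Slide and exposure were partly mixed, because slide 1 held the 3 male controls and male TCDD 1, slide 2 held male TCDD 2 and 3 and female control 1 and 2, and slide 3 held female control 3 and the 3 exposed females. Within slide 1, Gpihbp1 differed by -1.46 between male TCDD 1 and the mean of the 3 male controls, and the endothelial mean differed by -0.57. Within slide 3, Gpihbp1 differed by -0.87 between the 3 exposed females and the 1 control, and the endothelial mean by -0.03. Gpihbp1 minus the endothelial mean was therefore -0.89 within slide 1 and -0.84 within slide 3. Without the 6 arrays high in ganglion markers, Gpihbp1 differed by -1.56 in males and -0.52 in females, with 1 or 2 arrays left in each group.

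Mean levels of markers of other cell types were also set beside each other, without a test and without a share over all genes for such means. For 10 skeletal muscle markers of 12 listed, the mean level was -4.60 to -4.45 in male TCDD arrays and -4.29 to -3.46 in male controls, without overlap, and -4.40 to -3.78 in female TCDD arrays and -4.18 to -3.16 in female controls, with overlap. For 11 of the 12 pituitary markers it was -1.61 to -0.20 in male TCDD arrays and -0.33 to 0.07 in male controls, with overlap, and -0.95 to -0.71 in female TCDD arrays and -0.43 to 0.03 in female controls, without overlap; Pomc was measured too but lacked a value on 1 array and is left out of this mean. For 8 macrophage markers it was -1.68 to -0.68 in male TCDD arrays and -0.99 to -0.63 in male controls, with overlap. In females it was -1.03 to -0.64 in TCDD arrays and -1.23 to -0.50 in controls, also with overlap. The median difference of the 8 macrophage markers was -0.49 in males, with 8 below 0, and 0.15 in females, with 7 above 0. The part of these cell types in the Gpihbp1 values was not tested. The 11 mural cell markers had a median difference of -0.14 in males and 0.04 in females.

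A wider list of 40 further endothelial genes had 34 measured. Their median difference was -0.25 in males, with 31 below 0, and 0.11 in females, with 24 above 0, which are the same signs as the medians of the 8 general genes. In females 1 of the 34 was lower without overlap (Cd34) and 1 higher (Nr2f2, a factor of venous identity, 0.098), set beside 5.51% and 1.45% of all genes, and none passed the test. The 4 largest female differences among those well above background on all 12 arrays were those of Vwf, the clotting carrier stored in endothelial granules (0.75), Esm1, a secreted proteoglycan of sprouting vessels (-0.67), Cd93, an endothelial adhesion receptor (0.55), and Myct1 (0.52). Esm1 was -0.65 in males, where its groups did not overlap, so it was low in both sexes, with female TCDD 2 inside the control range. In females its difference was larger than the -0.61 of Gpihbp1, with an unadjusted limma p of 0.0207 against 0.0249. Of the 34 genes, 4 had an unadjusted limma p under 0.05 in females, beside 2.68% of all genes. These were Esm1, which was lower, and Cav1, Cd93 and Myct1, which were higher.

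Cd34, a sialomucin of capillary endothelium, was named after its values were seen: of the 34 it was the one lower without overlap in females. The Cd34 level was -4.94, -4.75 and -4.52 in male TCDD pituitaries, against -4.33, -4.21 and -3.96 in male controls. It was -4.54, -4.47 and -4.75 in female TCDD pituitaries, against -4.33, -4.42 and -4.22 in female controls. The Cd34 differences were -0.57 in males and -0.26 in females (SE 0.16, adjusted p by limma 1.0 in females). The 4 of these 34 genes lower without overlap in males were Cd34, Adgrl4, Tm4sf1 and Esm1, beside 6.02% of all genes.

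The lipoprotein lipase pathway was followed through 24 further genes, of which 21 were measured. Their median difference was -0.13 in males and -0.07 in females, and none passed the test in females. Among the genes well above background on all 12 arrays, the largest female differences were those of Apoc3, an inhibitor of the lipase (-0.995, groups not overlapping), Pparg, the adipogenic nuclear receptor (-0.46), Fabp5, a fatty acid binding protein (0.41), and Apoc2, the activator of the lipase (-0.38). Lipg, endothelial lipase, had a female difference of -0.86 with overlap and was well above background on 7 of 12 arrays. Of the 21 measured, Apoc3 was the 1 lower without overlap in females, beside 5.51% of all genes. Its female difference had an SE of 0.50. In males Apoc3 differed by -0.94 with overlapping groups. Lmf1, which the lipase needs to fold, differed by -0.025 in males and -0.026 in females.

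Cd36 and Fabp4 were the 2 pathway genes lower without overlap in males, of 21 measured, beside 6.02% of all genes, and both were named after their values were seen. Cd36, a fatty acid transporter, was -1.15, -1.23 and -0.35 in male TCDD pituitaries, against 0.08, -0.21 and -0.17 in male controls. Fabp4, a fatty acid carrier of capillary endothelium and adipocytes, was -3.47, -3.30 and -2.57 in male TCDD pituitaries, against -1.90, -2.18 and -1.47 in male controls. The male differences were -0.81 for Cd36 and -1.27 for Fabp4. Other fatty acid genes of the list did not share this: in males Fabp5 differed by 0.79 and the transporter Slc27a1 by -0.059, both with overlap. In females the differences were -0.10 for Cd36 and -0.14 for Fabp4, with overlap. Of 5 adipocyte markers listed, Fabp4 was the one measured. The part of macrophages or other cell types in the Cd36 and Fabp4 values was not tested.

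Angptl4, a secreted protein that inactivates the lipase, was also named after its values were seen. The Angptl4 level was 0.92, 1.71 and 2.25 in male TCDD pituitaries, against 2.46, 2.19 and 2.58 in male controls, a difference of -0.78 with male TCDD 3 inside the control range. In females it differed by 0.07.

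Measured over all 12 arrays, the gene whose pattern was most like that of Gpihbp1 was Fabp4. Likeness was the root mean square distance of centred log2 levels over the 12 arrays, among 16987 genes well above background on every array, and the ranks are a description. Fabp4 was at a distance of 0.31, and next came LOC682360 (0.31), Adcy8, a brain adenylate cyclase (0.34), Mfap5, a microfibril protein (0.34), and Clec1b, a platelet and myeloid lectin receptor (0.34). LOC682360 was lower without overlap in both sexes, by differences of -0.90 in males and -1.04 in females. Of the members, Kdr ranked 207th and Lpl 462nd in likeness to Gpihbp1, while Flt1, Plvap and Emcn ranked 9333rd, 8883rd and 10263rd. Arrays share their overall scaling, and the distance also takes in the exposure difference that chose Gpihbp1.

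**Figure D4:**
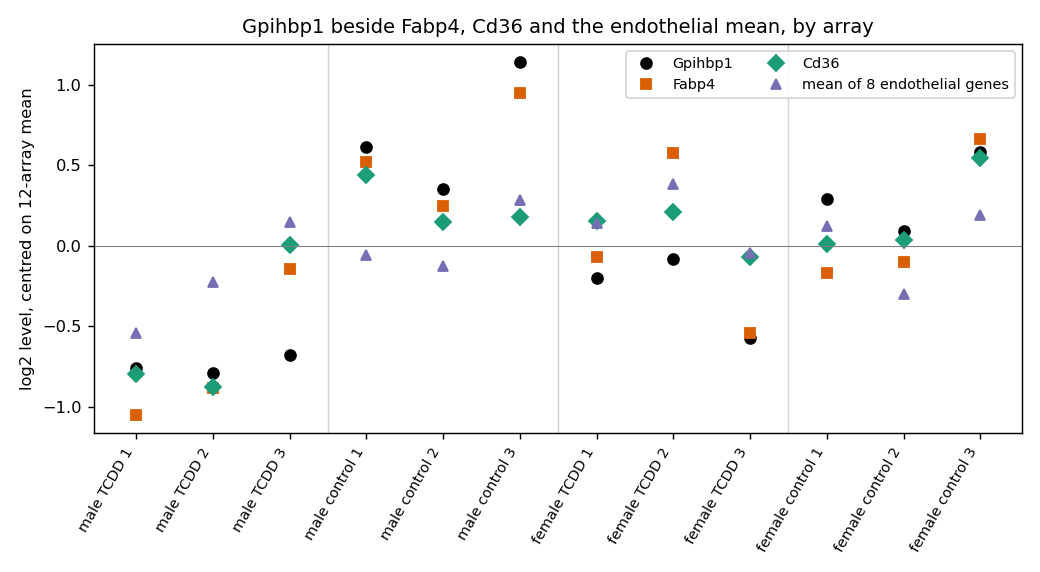
Log2 levels of Gpihbp1, Fabp4, Cd36 and the mean of the 8 general endothelial genes (vertical axis, each centred on its 12-array mean) on each of the 12 arrays (horizontal axis). In the male TCDD arrays Gpihbp1 lies between -0.79 and -0.68 while the endothelial mean ranges between -0.54 and 0.15; in the female TCDD arrays Fabp4 ranges between -0.54 and 0.58.

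Of the Vegf and angiopoietin signals, 14 of 15 listed genes were measured, with a median difference of -0.24 in males and 0.01 in females, and none passed the test in females. Nrp1, a Vegf and semaphorin co-receptor, was -1.67, -1.67 and -1.69 in male TCDD pituitaries, against -2.60, -1.92 and -1.87 in male controls. It was -1.29, -1.68 and -1.84 in female TCDD pituitaries, against -2.17, -1.84 and -2.10 in female controls. Nrp1 thus lay higher without overlap in each sex, as did 8.39% of all genes in males and 1.45% in females, by 0.45 in males and 0.44 in females (SE 0.20, adjusted p by limma 1.0 in females), with female TCDD 3 and female control 2 both at -1.84 to 2 decimals. Apln, named after its values were seen, was lower without overlap in males, by a difference of -0.50, beside 6.02% of all genes. In females Apln differed by -0.03 with overlap. Vegfd, a lymphatic growth factor well above background on 11 of 12 arrays, was lower without overlap in females, by a difference of -0.42 (adjusted p by limma 1.0), beside 5.51% of all genes, and differed by -0.08 in males with overlap. The other genes well above background on all 12 arrays with the largest female differences were Vegfc, another lymphatic growth factor (-0.48 in males, -0.34 in females), Adm, a vasodilator peptide (-0.62 in males, 0.17 in females), and Nrp2, a neuropilin of veins and lymphatics (0.01 in males, -0.16 in females).

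GPIHBP1 belongs to the Ly6 family, and 10 of 15 other listed members of that family were measured. Their median difference was 0.24 in males, with 9 above 0, and -0.05 in females, with 5 on each side, and none passed the test in females. Ly6h, a neuronal member, was 4.28, 4.07 and 4.46 in female TCDD pituitaries, against 5.03, 4.68 and 4.55 in female controls, a difference of -0.48 (SE 0.13, adjusted p by limma 1.0). It was lower without overlap there, beside 5.51% of all genes. Its unadjusted limma p in females was 0.00342, against 0.0249 for Gpihbp1. In males Ly6h differed by 0.04. Lypd1 differed by -0.44, Ly6g6e by 0.44 and Ly6e by -0.18 in females, with overlapping groups, against 0.35, 0.15 and 0.07 in males. The largest female differences of the family were those of dimmer genes. Ly6d, an epithelial member, differed by -2.30 with overlap (unadjusted p = 0.0173, adjusted p by limma 1.0), and was well above background on 1 of 3 female TCDD arrays and 3 of 3 female control arrays. Plaur, the urokinase receptor, was well above background on 11 of 12 arrays and differed by 0.72 with overlap (unadjusted p = 0.0294, adjusted p by limma 1.0). In males Plaur was higher without overlap, by 0.57, beside 8.39% of all genes.

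RefSeq promoter sequences (GRCr8, a short window around the gene start) were matched for 5 of the 10 genes: Kdr, Flt1, Tie1, Plvap and Emcn. The core letters GCGTG of the dioxin response element, searched on both strands, were in the windows of Flt1 and Kdr, 2 of 5, and in 29.7% of 33469 promoters. The letters AACAGGAA, a composite of forkhead and Ets motifs found in endothelial enhancers, were in the window of Emcn, 1 of 5, and in 2.58% of all promoters. A match of letters is a description of the window.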

How the data were processed

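Per the labels' protocols, fetal pituitary RNA was amplified, marked with 1 dye (Cy3) and read on an oligonucleotide array of the rat genome. The intensity values deposited for each spot are linear and were background-corrected by Agilent Feature Extraction (version 10.7.1.1 per the file headers, 9.5.1.1 per the submitters' processing notes). The authors' deposited value table holds the same arrays as intensity with a median of 83.5 in each column, and its scaling step is not given in the sources used here. From the processed intensity, control and outlier spots were left out, spots of a probe averaged, log2 taken and each array's 75th percentile subtracted. Kept probes were well above background on at least 3 of 12 arrays with at least 10 values (22431 of 30367); the brightest stood for its gene. Names came from RefSeq by accession (18006 probes) or symbol (2654), otherwise from the file (9707). limma 3.58.1 in R 4.3.3 fitted 4 group means to 12 arrays with an intensity trend, and p-values were Benjamini-Hochberg adjusted over 19382 genes, called at 0.05; the fit was tested on simulated data. Alternatives were background correction, scaling, probe filters, slide, replicate number, variance model, covariates and each array left out. Further genes named were any that passed the fit and, in each list, the 4 with the largest female difference among those well above background on all 12 arrays; others are named as dimmer or as chosen after their values were seen. The members and lists were chosen with earlier results of these data known. Replicate numbers were not used as pairs: same-numbered deviations correlated between -0.70 and -0.37 in females and between -0.22 and 0.44 in males. Differently numbered ones correlated between -0.22 and 0.55 in females and between -0.62 and 0.51 in males. These values cannot decide whether the numbers mark pairs, since the arrays also differ in ganglion markers and the labels name no litters. The number of arrays limits the precision.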

Additional observations from a re-analysis of the deposited data

How the results depend on the processing

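Gpihbp1 was below 0 in each sex under all 29 alternatives, and it did not pass the test in females under any of them (adjusted p by limma between 0.324 and 1.0). Not all of these could move its difference. The probe filters, the replicate block, no variance trend, a single sex alone and every probe on its own left it as it was. So did leaving out an array of the other sex. The authors' table and quantile scaling gave nearly the same Gpihbp1 differences, -1.46 in males and -0.55 in females with each, so they are not separate checks. Gpihbp1 was itself chosen by its male difference. With normexp background correction, whose offset exceeds most Gpihbp1 signals, its male difference was -0.53, and Gpihbp1 minus the endothelial mean was -0.38 in females and -0.31 in males. That male value was -0.89 with slide as a fixed block or within slide, and -1.59 without the arrays high in ganglion markers. Leaving out 1 array at a time gave Gpihbp1 differences of -0.72 to -0.46 in females and -1.62 to -1.23 in males, and values minus the endothelial mean of -0.84 to -0.72 in females and -1.37 to -1.06 in males. The counts of genes called, 2 in each sex, were 1 in females and 1 in males with normexp, with the probe filter set to all 12 arrays and with the replicate block, where Gpihbp1 in females was -0.61 (SE 0.26). In females the limma count was 0 within slide (532 genes at an unadjusted p under 0.05) and 0 without the ganglion-high arrays (489). In males it was 26 with slide as a fixed block, 276 within slide, 4 without the variance trend, 6559 with array weights, 1 with males alone, 4 with the endothelial or the ganglion covariate and 0 without the ganglion-high arrays (937 unadjusted). With array weights male TCDD 2 had a weight of 12.78, against 0.42 for male TCDD 1 and 0.32 for male TCDD 3, so that count rested mostly on 1 exposed male array. The cause of these changes in count was not tested. Female differences near 0 changed sign for Lpl (0.10: -0.0011 with normexp, -0.28 with slide as a fixed block or within slide, -0.086 with the endothelial covariate), Tek (0.14: -0.044 with normexp, -0.082 with the slide block or within slide), Cdh5 (0.11: -0.12 with the slide block or within slide), Pecam1 (-0.08: 0.034 with the ganglion covariate, 0.073 without the ganglion-high arrays), Kdr (-0.06: 0.050 with the ganglion covariate) and Tie1 (-0.0032: 0.026 with median centring, 0.017 with quantile scaling, 0.015 with the authors' table, 0.0050 with slide as a random block, 0.081 with the ganglion covariate, 0.046 without the ganglion-high arrays). With 1 array left out they ranged between -0.11 and 0.30 for Lpl, -0.028 and 0.26 for Tek, -0.22 and 0.056 for Pecam1, -0.16 and 0.062 for Kdr, and -0.10 and 0.046 for Tie1. In males, Flt1, Plvap and Emcn were above 0 with the endothelial or the ganglion covariate, and 5 of the 8 endothelial genes without the ganglion-high arrays. The endothelial mean in females was -0.03 with slide as a fixed block or within slide. In all 48 of 754 alternative values changed sign, 0 of them for Gpihbp1. The 754 include values that a setting could not move, and the counts of genes called, which have no sign to change.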
